A study of Homo sapiens with 56 samples.

Results

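The AXL family of receptors and the MET pathway were described through 9 genes, which are the receptors AXL, TYRO3 and MERTK with their ligands GAS6 and PROS1, the receptor MET with its ligand HGF, the MET-related receptor MST1R, and MACC1. All 9 were measured, of 18377 genes on the arrays that carry a single gene symbol, and each was read from its probe set with the highest mean over arrays. Throughout, MET is the receptor gene and not the mesenchymal to epithelial transition. The samples were 28 human ovarian cancer cell lines, each grown without further treatment and read on 2 arrays of total RNA, so a group is a cell line with n = 2. Nothing in the labels tells if duplicates were grown as separate cultures. P-values of comparisons between lines therefore measure the spread between duplicate arrays, which may be technical. Those for base media and for a score of epithelial to mesenchymal transition rest on line means and the spread between lines. The lines were grown in DMEM (CAOV3, CH1, DOV13, OAW28, OAW42, OVCA420, OVCA432, OVCA433, SKOV3, TYKNU), in RPMI 1640 (A2780, COLO720E, EFO21, HEY, HEYC2, OVCAR2, OVCAR3, OVCAR5, PEO1), in DMEM/F12 (FUOV1, JHOS2, JHOS3, JHOS4, OV17R, OV56, OV7), in RPMI 1640 mixed with MEGM (UWB1.289) or in MCDB105 mixed with M199 (TOV112D). Fetal bovine serum (FBS) was at 3 to 20 percent. OAW28, OAW42, OVCAR2, OVCAR3 and OVCAR5 also received insulin, OV17R, OV56 and OV7 insulin and hydrocortisone, and EFO21 and the JHOS lines non-essential amino acids. Each line is a single model of its tumour, HEY and HEYC2 are related lines, and 1 array labelled JHSO4 was taken as JHOS4.

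AXL, TYRO3 and MERTK, together called the TAM receptors, are receptor tyrosine kinases. Their ligands are the vitamin K-dependent proteins GAS6, for each of them, and protein S (PROS1), for TYRO3 and MERTK. These ligands bridge the receptors to phosphatidylserine on membranes. In immune cells MERTK and AXL serve the uptake of dying cells, and in carcinomas AXL is known for its part in invasion and drug resistance. MET binds hepatocyte growth factor (HGF), which is made mainly by stromal cells and drives scattering and motility of epithelial cells. MST1R, also called RON, is the receptor of macrophage-stimulating protein, and MACC1 was described as an activator of MET transcription in colon cancer.

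Of the 56 arrays, 50 were nearest in expression to the duplicate of the same line and 6 were nearest to another line. Duplicates correlated at 0.980 to 0.997 over all genes in 25 lines and at 0.615 to 0.806 in HEYC2, OV56 and OVCA420. The arrays that stood apart in these lines were HEYC2 replicate 1, OV56 replicate 2 and OVCA420 replicate 1, which were nearest to each other. HEYC2 replicate 1 and OV56 replicate 2 correlated at 0.936, and OVCA420 replicate 1 was nearest to HEYC2 replicate 1 at 0.917. The main results are given with and without these 3 arrays. A floor of detection is not given with the values, so the 95th percentile of 339 olfactory receptor genes, which these cells are not known to use, served as a reference for levels that may be background. It was 5.45 log2 units over all arrays and 5.10 to 6.38 on single arrays. Levels are log2 probe intensities throughout, and levels of different genes are not set against each other. In bulk RNA, fewer cells that use a gene cannot be told from less RNA per cell. The ovarian carcinoma marker PAX8, a transcription factor of Müllerian epithelium, ran from 6.29 in CAOV3 to 10.95 in OVCA432 with a median of 9.08 over lines. Of the 7 ovarian carcinoma markers listed, all varied between lines, as did 65.7 percent of all genes.

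The sequences upstream of 4 of the genes are shown because they hold the E-box CAGGTG or its reverse complement CACCTG, the letters that repressors such as ZEB1 and SNAI1 are known to bind. Each is the RefSeq sequence (GRCh38.p14) of the 250 bases before the gene's start, written 5′ to 3′ on the strand of the gene, with the E-boxes in capitals. The first is MACC1 at chr7:20217385-20217634 (minus strand), with E-boxes that start at positions -241, -214 and -59 from the gene start. The second is MST1R at chr3:49903874-49904123 (minus strand), with 1 at -154. The third is the first of 2 AXL promoters, at chr19:41218973-41219222 (plus strand), with 1 at -106. The last is GAS6 at chr13:113864077-113864326 (minus strand), with 1 at -244.
MACC1: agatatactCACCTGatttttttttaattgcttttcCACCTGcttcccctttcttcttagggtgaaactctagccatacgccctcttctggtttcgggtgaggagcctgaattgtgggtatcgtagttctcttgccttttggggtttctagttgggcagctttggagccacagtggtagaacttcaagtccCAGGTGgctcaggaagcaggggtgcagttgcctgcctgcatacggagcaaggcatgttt
MST1R: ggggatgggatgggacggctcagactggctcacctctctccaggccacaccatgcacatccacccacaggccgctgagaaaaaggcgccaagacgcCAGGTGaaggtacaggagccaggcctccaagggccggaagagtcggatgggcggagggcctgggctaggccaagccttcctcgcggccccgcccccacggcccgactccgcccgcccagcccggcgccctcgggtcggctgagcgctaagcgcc
AXL: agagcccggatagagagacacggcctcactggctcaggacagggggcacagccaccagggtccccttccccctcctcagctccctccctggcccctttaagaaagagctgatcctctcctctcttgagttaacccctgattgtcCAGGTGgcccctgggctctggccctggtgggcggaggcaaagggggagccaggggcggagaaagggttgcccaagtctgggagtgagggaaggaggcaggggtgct
GAS6: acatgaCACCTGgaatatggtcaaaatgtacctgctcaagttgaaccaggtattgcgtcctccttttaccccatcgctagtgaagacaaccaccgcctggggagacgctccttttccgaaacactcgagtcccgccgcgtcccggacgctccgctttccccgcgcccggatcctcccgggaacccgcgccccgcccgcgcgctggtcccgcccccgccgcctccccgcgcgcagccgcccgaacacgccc

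An E-box was present in 17.5 percent of 35116 promoters of the same length and in 4 of the 11 promoters of the 9 genes. Only 163 of all promoters, or 0.464 percent, held 3 or more, as that of MACC1 did. The motif GGGCGG, the GC box bound by SP1, was in 7 of the 9 genes and in 42.6 percent of all promoters, and was absent from the windows of HGF and MACC1. The motif TGANTCA, to which AP-1 factors bind, was in the window of TYRO3 alone among the 9 and in 6.57 percent of all, and AACNNGTT, a motif of Grainyhead-like factors, was in none of the 9 and in 3.00 percent of all. Both strands were searched, no match to one motif overlapped a match to another in these windows, and a match is a description of the letters only.

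All 9 genes varied between the 28 lines by more than their duplicate arrays did (limma moderated F test, adjusted p = 3.222e-06 or less for each), as did 65.7 percent of all genes. MACC1 had the widest range with 10.39 log2 units between its lowest and highest line, followed by HGF with 6.81, MET with 6.32 and AXL with 5.46. TYRO3 had the narrowest with 1.45. The lower ends of the ranges of MACC1, HGF and MET were not above the olfactory receptor reference, so these widths and their order rest on levels that may be background. The SD over line means was 2.33 for MACC1, 1.76 for MET and 1.66 for AXL, against a median of 0.418 over all genes, and that of TYRO3 was 0.408. Each line was then compared with the mean of the other 27, and a line was called apart at an adjusted p under 0.05 and a difference of at least 1 log2 unit. Over the 9 genes, with 28 line values for each, 49 line values were called higher and 51 lower. Over all genes the shares called were 3.79 percent higher and 3.48 percent lower.

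**Figure D1:**
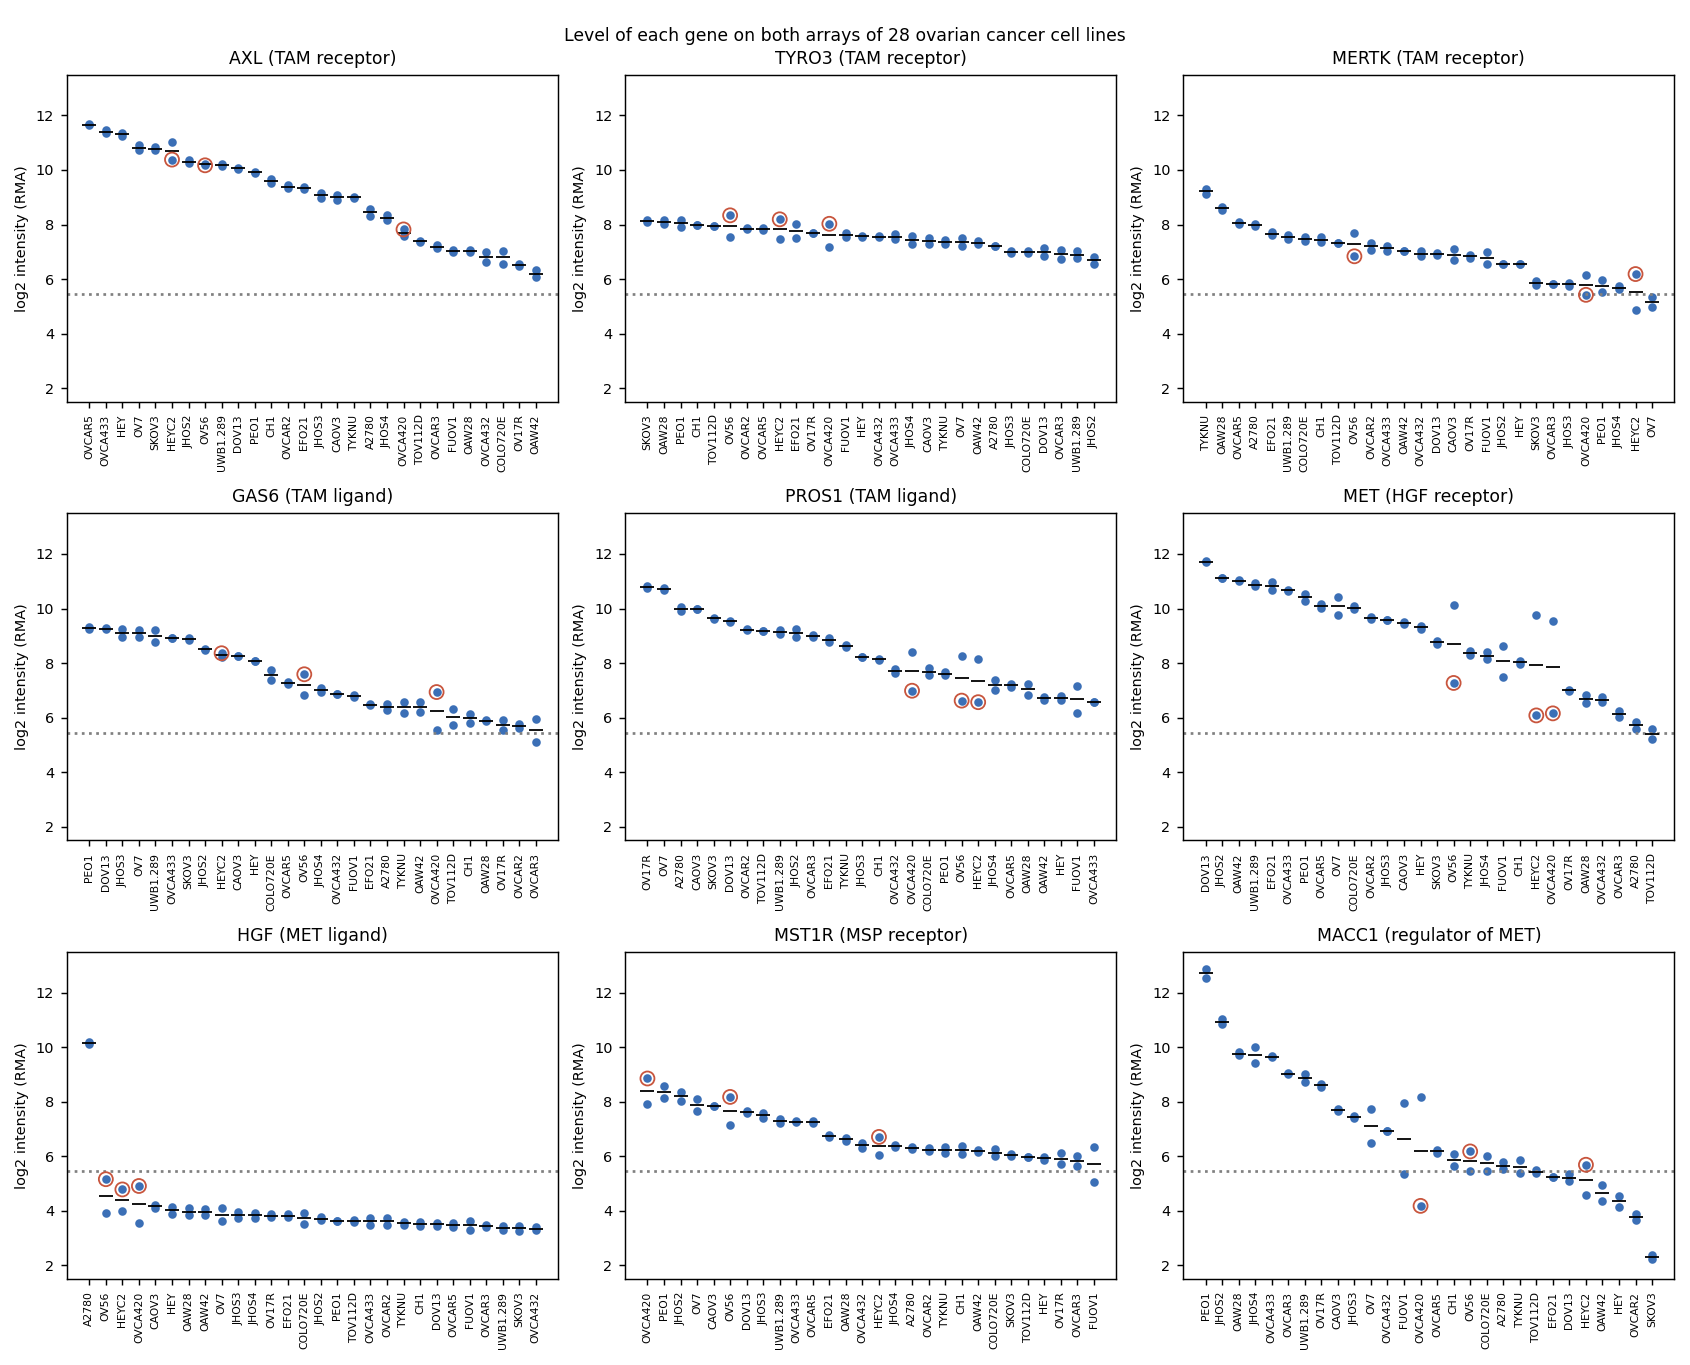
Level of each of the 9 genes on every array (log2 probe intensity, vertical axis) in the 28 cell lines (horizontal axis). Red circles mark the 3 arrays that stood apart and the dotted line the olfactory receptor reference of 5.45. The arrays of HGF lie above the reference in A2780 (10.20 and 10.11) and from 3.27 to 5.16 in the other lines, whereas those of TYRO3 stay between 6.54 and 8.34.

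AXL, the TAM receptor most often linked to invasive carcinoma cells, split the lines widely. OVCAR5 had the highest line mean (arrays 11.64 and 11.68), the median was 9.20, and OAW42 had the lowest (6.33 and 6.07). OVCAR5 stood 2.75 ± 0.14 (SE) above the mean of the other lines (limma, adjusted p = 1.904e-16) and OAW42 below it (difference -2.91 ± 0.14, adjusted p = 4.98e-17). In all, 10 lines were called higher and 9 lower. After OVCAR5, the lines called higher were OVCA433 (11.35 and 11.46), HEY (11.35 and 11.26), OV7 (10.73 and 10.90), SKOV3 (10.72 and 10.85), HEYC2 (10.38 and 11.02), JHOS2 (10.36 and 10.24), OV56 (10.23 and 10.17), UWB1.289 (10.20 and 10.16) and DOV13 (10.05 and 10.06). The lines called lower, before OAW42, were OVCA420 (7.82 and 7.57), TOV112D (7.40 and 7.37), OVCAR3 (7.14 and 7.24), FUOV1 (6.99 and 7.07), OAW28 (7.06 and 6.99), OVCA432 (6.99 and 6.62), COLO720E (6.55 and 7.04) and OV17R (6.57 and 6.47). No array of the lines called higher overlapped with an array of the lines called lower. These lines were picked by the same values, so this is no further evidence of a split. The remaining 9 lines lay between JHOS4 at 8.26 and PEO1 at 9.91. The 95% half-width of a difference between 2 line means was 0.385, and of the 27 steps between neighbours in this order 4 were larger, those from HEY to OV7 (0.489), HEYC2 to JHOS2 (0.399), TYKNU to A2780 (0.552) and JHOS4 to OVCA420 (0.559). Without the 3 arrays that stood apart the half-width for lines with 2 arrays was 0.242. Further steps, such as OVCAR5 to OVCA433 (0.253), then exceeded it. AXL was above the olfactory receptor reference on both arrays in all 28 lines, the same 19 calls were made without the 3 arrays that stood apart, and no call for AXL changed as each of the 56 arrays was left out in turn.

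TYRO3, the TAM receptor known best from the nervous system, had the narrowest range of the 9. Line means ran from 6.68 in JHOS2 (arrays 6.83 and 6.54) through a median of 7.57 to 8.14 in SKOV3 (8.09 and 8.18). No line reached a difference of 1 log2 unit from the others, and none of the 27 steps between neighbours exceeded the half-width of 0.468. JHOS2 differed from the other lines by -0.87 ± 0.17 (SE; limma, adjusted p = 0.0001654), under the minimum difference, and passed it (-1.01) without replicate 1. A near-identical pseudogene of TYRO3 is known, and what it adds to the probe set's signal was not tested.

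MERTK, the TAM receptor typical of macrophages, was highest in TYKNU (9.13 and 9.31), with a median of 6.92, and lowest in OV7 (5.35 and 4.98). TYKNU exceeded the mean of the other lines by 2.42 ± 0.19 (SE; limma, adjusted p = 1.839e-11). OAW28 (8.52 and 8.66), OVCAR5 (8.01 and 8.09) and A2780 (7.94 and 8.01) were the other lines called higher. The 8 lines called lower were SKOV3 (5.80 and 5.93), OVCAR3 (5.83 and 5.81), JHOS3 (5.76 and 5.87), OVCA420 (5.42 and 6.16), PEO1 (5.98 and 5.54), JHOS4 (5.63 and 5.74), HEYC2 (6.18 and 4.86) and OV7, and 16 lines lay from 6.54 to 7.67. Only the steps from TYKNU to OAW28 (0.626) and from HEY to SKOV3 (0.679) exceeded the half-width of 0.547, which left the 8 lowest lines apart from a graded rest. Without the 3 arrays that stood apart the half-width was 0.295, and the step from OAW28 to OVCAR5 (0.540) exceeded it too. OVCA420, at 6.16 on its kept array, then lay between HEY and SKOV3. HEYC2, OV7 and OVCA420 were not above the olfactory receptor reference on both arrays. Without the 3 arrays that stood apart 4 lines were called higher and 7 lower, 11 of these the same calls. As single arrays of the line were left out, the calls were lost in SKOV3 (to -0.99), PEO1 (to -0.95), OVCA420 (to -0.76) and HEYC2 (to -0.75), each by less than the minimum difference.

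Because MERTK marks macrophages in tissue, markers of other cell types were read beside it. Of the 8 macrophage markers, PTPRC, CD163, MRC1 and AIF1 were above the olfactory receptor reference on both arrays in 0 of 28 lines. ITGAM was above it in 1, CSF1R in 8, CD14 in 26 and CD68 in 28. In TYKNU, PTPRC was at 3.63 and CD14 at 5.77, while CD68, a lysosomal protein, was at its highest over lines (10.73). The summed level of the 8 macrophage markers was highest in TYKNU, at 10.88 on the log2 scale against 8.11 to 9.78 in the other lines, and CD68 made up most of that sum. The summed level of the 6 endothelial markers was highest there too, at 11.08 against 7.78 to 10.43 in the others. The endothelial genes PECAM1 (9.79), CDH5 (9.28), KDR (8.06) and TEK (7.87) all peaked in TYKNU, whereas VWF (5.39) and CLDN5 (6.82) did not. The part of these markers in the MERTK level was not tested.

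GAS6, the ligand of all TAM receptors, ranged over 3.75 log2 units. It was highest in PEO1 (9.26 and 9.30), had a median of 7.11, and was lowest in OVCAR3 (5.95 and 5.11). PEO1 stood 1.99 ± 0.20 (SE) above the other lines (limma, adjusted p = 4.328e-09). The other lines called higher were DOV13 (9.23 and 9.29), JHOS3 (8.97 and 9.26), OV7 (9.22 and 8.97), UWB1.289 (8.79 and 9.21), OVCA433 (8.92 and 8.92), SKOV3 (8.93 and 8.83) and JHOS2 (8.50 and 8.52). The 10 lines called lower were A2780 (6.51 and 6.27), TYKNU (6.18 and 6.58), OAW42 (6.20 and 6.56), OVCA420 (6.94 and 5.56), TOV112D (5.74 and 6.32), CH1 (5.82 and 6.12), OAW28 (5.86 and 5.92), OV17R (5.56 and 5.91), OVCAR2 (5.64 and 5.76) and OVCAR3. Among these, OVCA420 rested on arrays that differed by 1.38. None of the 27 steps between neighbours exceeded the half-width of 0.579. With the 3 arrays that stood apart left out, the half-width was 0.382, and the step from HEY to COLO720E (0.518) exceeded it. Without the 3 arrays that stood apart 8 lines were called higher and 7 lower, 15 of them the same calls. The calls for A2780, TYKNU and OAW42 sat at the limit and were lost as single arrays were left out, with differences down to -0.88, -0.82 and -0.83, and that for OVCA420 was lost without replicate 2 (-0.46).

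PROS1, which encodes the anticoagulant protein S and is a ligand of TYRO3 and MERTK, had another order. OV17R was highest (10.84 and 10.75), the median was 8.19, and OVCA433 was lowest (6.58 and 6.59), the line next to OVCAR5 in AXL. OV17R exceeded the other lines by 2.53 ± 0.28 (SE; limma, adjusted p = 1.855e-08). OV7 (10.67 and 10.74), A2780 (9.92 and 10.06), CAOV3 (9.97 and 9.98), SKOV3 (9.63 and 9.66) and DOV13 (9.56 and 9.49) were also called higher. The 8 lines called lower were HEYC2 (6.57 and 8.15), JHOS4 (7.38 and 7.01), OVCAR5 (7.13 and 7.23), OAW28 (7.25 and 6.84), OAW42 (6.66 and 6.77), HEY (6.78 and 6.63), FUOV1 (7.16 and 6.19) and OVCA433. The call for HEYC2 rested on the array that stood apart and was lost without it, with 6 lines higher and 7 lower remaining, and the call for JHOS4 was lost without its replicate 2 (-1.01). OV56 was called lower without replicate 1 (-1.76) and OVCA420 without replicate 2 (-1.38). No step between neighbours exceeded the half-width of 0.791. Without the 3 arrays that stood apart this half-width was 0.330, and steps such as OV7 to A2780 (0.715) exceeded it. PROS1 has a near-identical pseudogene and 2 probe sets here, with means of 8.35 (used) and 6.74, so its level is less certain.

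MET had the largest SD among the 53 measured receptor tyrosine kinases. DOV13 was highest (11.73 and 11.70), the median was 9.03, and TOV112D was lowest (5.22 and 5.57), not above the olfactory receptor reference on both arrays. DOV13 lay 2.95 ± 0.55 (SE) above the other lines (limma, adjusted p = 0.0001136) and TOV112D below them (difference -3.61 ± 0.55, adjusted p = 5.675e-06). The other lines called higher were JHOS2 (11.11 and 11.10), OAW42 (11.04 and 11.01), UWB1.289 (10.82 and 10.92), EFO21 (10.98 and 10.69), OVCA433 (10.70 and 10.64) and PEO1 (10.53 and 10.29). Also called lower were OV17R (6.96 and 7.03), OAW28 (6.83 and 6.52), OVCA432 (6.74 and 6.59), OVCAR3 (6.01 and 6.25) and A2780 (5.60 and 5.83). All of these lines had arrays within 0.351 of each other. In the 3 lines with an array apart the duplicates disagreed strongly, at 6.08 and 9.76 in HEYC2, 10.12 and 7.27 in OV56 and 6.16 and 9.54 in OVCA420, and FUOV1 read 7.49 and 8.63. The half-width of MET was 1.54, and no step between neighbours exceeded it. Without the 3 arrays that stood apart this half-width was 0.424, and steps such as DOV13 to JHOS2 (0.605) exceeded it. Without the 3 arrays 11 lines were called higher and 8 lower, and the 13 calls above were kept. With 1 array of a line left out, and that line assumed to vary like the others, the calls were lost in EFO21 (difference 1.89), OAW28 (-2.13), OV17R (-1.91), OVCA433 (1.84), PEO1 (1.48) and UWB1.289 (2.02), while HEYC2 (-2.83) and OVCA420 (-2.75) were called lower without their replicate 2.

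HGF, the ligand of MET, stood out in a single line. A2780 read 10.20 and 10.11, and the other 27 lines had means from 3.34 (OVCA432) to 4.54 (OV56), with a median of 3.71 and an SD of 0.316. A2780 exceeded the mean of the others by 6.40 ± 0.21 (SE; limma, adjusted p = 9.58e-21) and was the only line above the olfactory receptor reference on both arrays. The arrays of the other lines ranged from 3.27 to 5.16 and did not overlap with A2780. The next lines in the order, OV56 (3.93 and 5.16), HEYC2 (4.78 and 4.01) and OVCA420 (4.91 and 3.56), held their places through the arrays that stood apart, and OV56 was called higher without replicate 1 (1.19). Since the other lines lay where background may set the level, the difference is one of probe intensities and no order is read among them. MET was at 5.71 in A2780, above TOV112D only, so the line with the ligand was among those called lower for the receptor.

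As HGF is a product of fibroblasts, fibroblast markers were read in A2780. Their summed level over 8 genes was 10.84 on the log2 scale, rank 4 of 28, against 8.57 to 11.50 in the others. COL1A2 was highest in A2780 (9.80) and COL3A1 was at 8.71, while FAP (3.44), LUM (3.55) and DCN (4.62) lay below the reference and COL1A1 (7.68) was close to its median of 7.43. THY1 (7.49, median 6.09) and PDGFRB (6.52, median 5.73) were above their medians and the reference. The summed level of the 8 epithelial markers was the lowest of the 28 lines, at 11.03 against 11.07 to 16.16. The part of these markers in the HGF level was not tested.

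MST1R, the receptor of macrophage-stimulating protein, was highest in OVCA420 (8.85 and 7.93) and PEO1 (8.58 and 8.14), had a median of 6.39, and was lowest in FUOV1 (5.07 and 6.32). PEO1 exceeded the other lines by 1.62 ± 0.21 (SE; limma, adjusted p = 4.068e-07). JHOS2 (8.34 and 8.04), OV7 (7.67 and 8.09) and CAOV3 (7.85 and 7.84) were also called higher, and OVCAR3 (mean 5.82) and FUOV1 were called lower. The other 21 lines ran from 5.91 to 7.66, and no step between neighbours exceeded the half-width of 0.593. This half-width was 0.426 without the 3 arrays that stood apart. FUOV1 differed by 1.25 between its arrays and its call was lost without replicate 1 (-0.52), as were those for OVCAR3 (-0.84) and OV7 (0.90) without their replicate 2, while OV56 was called higher without replicate 1 (1.40). Without the 3 arrays that stood apart PEO1 was the highest line, with 5 lines called higher and 1 lower.

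MACC1, which holds protein interaction domains and no kinase, spanned most of the scale of the arrays. It was highest in PEO1 (12.87 and 12.53), had a median of 6.18 and was lowest in SKOV3 (2.38 and 2.24), a difference of 1340-fold in probe intensity whose lower end lies far under the olfactory receptor reference. PEO1 exceeded the other lines by 6.05 ± 0.48 (SE; limma, adjusted p = 1.8e-11), and SKOV3 lay below them by the same measure (difference -4.72, limma, adjusted p = 4.016e-09). JHOS2 (11.02 and 10.84), OAW28 (9.81 and 9.71), JHOS4 (9.99 and 9.41), OVCA433 (9.68 and 9.62), OVCAR3 (9.01 and 9.04), UWB1.289 (mean 8.86) and OV17R (8.54 and 8.66) were also called higher. TOV112D (5.48 and 5.39), EFO21 (5.22 and 5.25), DOV13 (5.33 and 5.08), HEYC2 (5.69 and 4.59), OAW42 (4.37 and 4.95), HEY (4.14 and 4.54) and OVCAR2 (3.86 and 3.67) were also called lower, and of the 8 lines only TOV112D was above the reference on both arrays. In 17 of 28 lines both arrays were above it. Steps beyond the half-width of 1.37 were those from PEO1 to JHOS2 (1.77) and from OVCAR2 to SKOV3 (1.46). Without the 3 arrays that stood apart the half-width was 0.920, and the step from JHOS2 to OAW28 (1.17) exceeded it too. Duplicates were far apart in OVCA420 (4.18 and 8.18), FUOV1 (5.34 and 7.94) and OV7 (6.48 and 7.74). Without the 3 arrays 9 lines were called higher and 13 lower, with all 16 calls kept. OVCA420 was called higher without replicate 1 (1.294) and lower without replicate 2 (-2.71). With 1 of their own arrays left out, the calls were lost in DOV13 (-1.59), EFO21 (-1.68), OV17R (1.74), TOV112D (-1.44) and HEYC2 (-1.24), which kept their direction.

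Which receptors and ligands were found in the same lines was read from the calls and from Spearman's rho over the 28 line means. The strongest of the pairs between the 9 genes were GAS6 with MET (rho = 0.614, Pearson's r = 0.632) and AXL with GAS6 (rho = 0.610, r = 0.644), at 0.565 and 0.586 without the 3 arrays that stood apart. GAS6 with MST1R followed at 0.551, AXL with MET at 0.459 and MET with MST1R at 0.452. The last of these was 0.573 without the 3 arrays, above GAS6 with MET, so the order of the pairs depends on those arrays. The lines share array type and processing, so these values are descriptions. The TAM receptors hardly followed each other, with rho of 0.113 for AXL and TYRO3, -0.146 for AXL and MERTK and 0.078 for TYRO3 and MERTK. PROS1 showed no such order with AXL (-0.024), nor did MACC1 with MET (-0.009). HGF with MET had a rho of -0.131, or 0.024 without the 3 arrays. Outside A2780 the HGF levels may be background, so this rho is not read as a lack of relation.

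**Figure D2:**
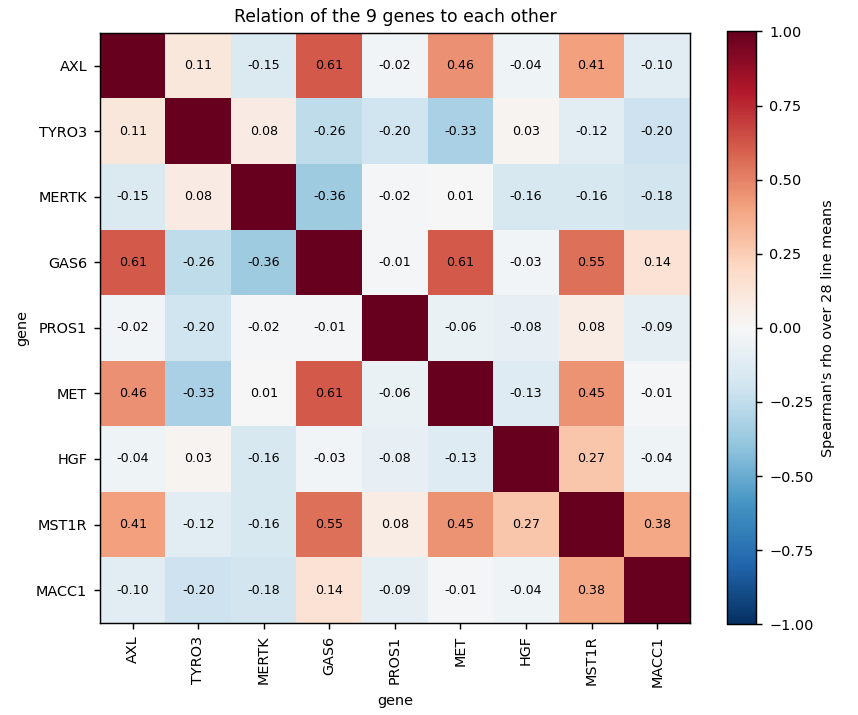
Spearman's rho over 28 line means for each pair of the 9 genes (colour and printed value). GAS6 with MET (0.614) and AXL with GAS6 (0.610) are the highest pairs, and MERTK with GAS6 (-0.357) is negative.

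AXL and GAS6 were called higher together in DOV13, JHOS2, OV7, OVCA433, SKOV3 and UWB1.289, which are 6 of the 10 lines with higher AXL and of the 8 with higher GAS6. Both were called lower in OAW28, OAW42, OV17R, OVCA420, OVCAR3 and TOV112D, 6 of 9 and of 10. In 0 lines were they called in opposite directions. MET joined them in DOV13, JHOS2, OVCA433 and UWB1.289, where AXL, GAS6 and MET were all higher, and in OAW28, OV17R, OVCAR3 and TOV112D, where all were lower. OAW42 was the exception, with the lowest AXL of all lines, lower GAS6 and MET at 11.02, behind DOV13 and JHOS2 only. OVCAR5 and HEY, by contrast, had AXL called higher and GAS6 not called (7.27 and 8.08). PEO1 had higher GAS6, MET, MST1R and MACC1 with AXL at 9.91, not called. MST1R and MACC1 were both higher in JHOS2 and PEO1, and JHOS2 was called higher for 5 of the 9 genes. OVCAR3 was called lower for 5 and higher for MACC1.

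**Figure D3:**
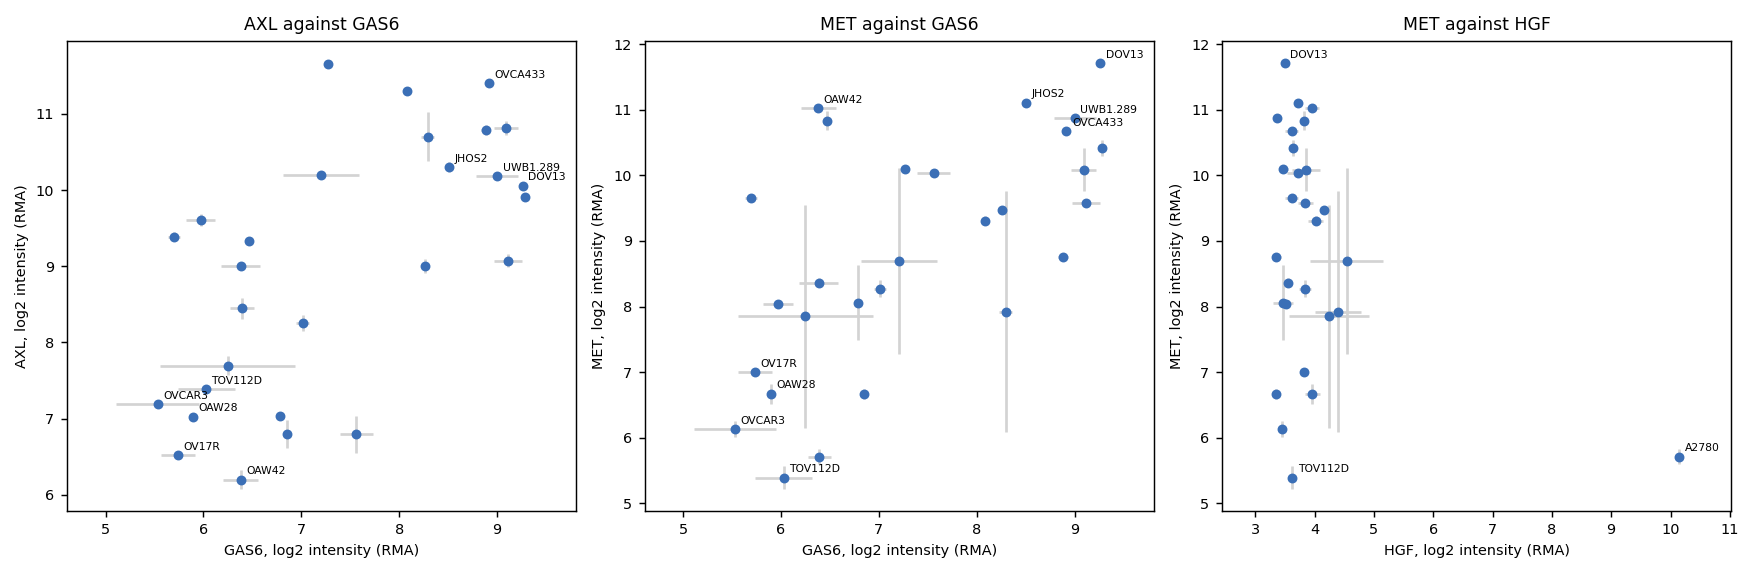
Line means of a receptor against a ligand (log2 probe intensity on both axes) for AXL and GAS6, MET and GAS6, and MET and HGF, with 1 point for each of 28 lines. AXL and MET are high in most lines with high GAS6, while the only line with HGF above the reference on both arrays, A2780, has MET at 5.71.

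The study orders its lines from epithelial to mesenchymal by an EMT (epithelial to mesenchymal transition) score, and the genes were related to a rebuilt form of it, the signed Kolmogorov-Smirnov statistic between its mesenchymal and epithelial signature genes on each array. The score ran from -0.818 in PEO1, the most epithelial, to 0.718 in TOV112D. MACC1 fell along the score with a rho of -0.694 ± 0.116 (jackknife SE; 100000 permutations, p = 2e-05, Benjamini-Hochberg adjusted p = 0.0105 over all genes). Pearson's r was -0.715 (permutation p = 1e-05, the smallest the permutations can give), and -0.667 with the extreme lines PEO1 and TOV112D removed. The slope was -3.66 ± 0.70 (SE) log2 units per unit of score. MST1R fell too (rho = -0.670 ± 0.112, SE, permutation p = 0.00013, adjusted p = 0.0246) with an r of -0.656 (permutation p = 0.00017), an r of -0.586 with the same lines removed and a slope of -1.22 ± 0.27. MST1R is one of the study's epithelial signature genes, chosen for such a direction, so its rho is not independent evidence even though it was left out of the score. MACC1 is not among the 420 signature genes listed for the score. The list is shorter than the signature the paper reports, so whether MACC1 belongs to the full signature is not known here. Of all genes 1.03 percent had a rho above 0.5 and 2.07 percent a rho below -0.5. Past the adjusted p were 0.136 percent of genes that rose and 0.669 percent that fell, or 0.207 and 0.751 percent without the 3 arrays that stood apart. Of the 9 genes 0 rose and 2 fell, also without these arrays (MACC1 -0.719, adjusted p = 0.00934, and MST1R -0.679, adjusted p = 0.0204).

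Neither call held under every setting. Within base media the rho of MACC1 was -0.673 in DMEM (10 lines), -0.600 in RPMI 1640 (9) and -0.50 in DMEM/F12 (7), and that of MST1R was -0.842, -0.417 and -0.429. With level and score centred on the medium the adjusted p was 0.0981 for MACC1 and 0.249 for MST1R.

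**Figure D4:**
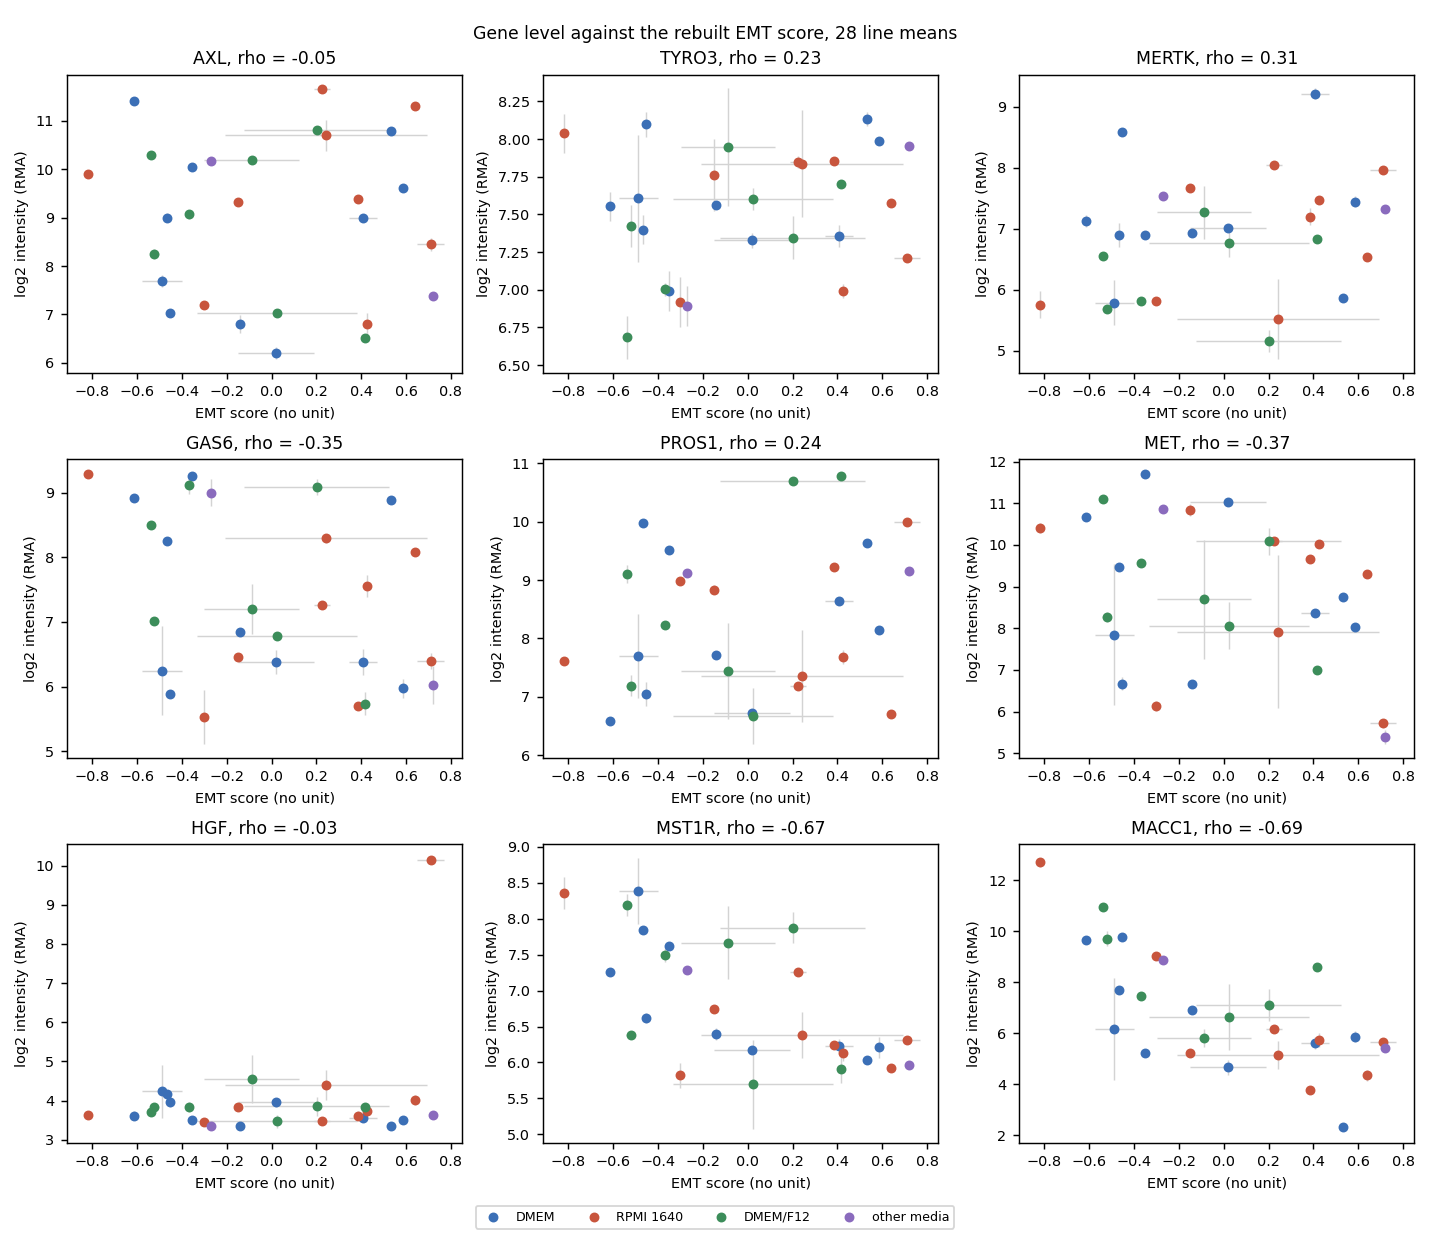
Line mean of each of the 9 genes (log2 probe intensity, vertical axis) against the rebuilt EMT score (horizontal axis, higher is more mesenchymal) in 28 lines. Colours give the base medium and grey bars the range of the 2 arrays. MACC1 (rho = -0.694) and MST1R (-0.670) fall along the score, and AXL has a rho of -0.050.

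The other 7 genes did not pass the adjusted threshold. AXL had a rho of -0.050 ± 0.196 (jackknife SE, adjusted p = 0.972; 0.030 without the 3 arrays that stood apart), with PEO1 and OVCA433 at the epithelial end as high as 9.91 and 11.41, and TOV112D at the other end at 7.39. MET had a rho of -0.372 ± 0.180 (adjusted p = 0.507) and GAS6 one of -0.345 ± 0.180 (adjusted p = 0.565). MERTK (0.314, adjusted p = 0.621), PROS1 (0.236, adjusted p = 0.773), TYRO3 (0.230, adjusted p = 0.784) and HGF (-0.033, adjusted p = 0.983; 0.109 without the 3 arrays) lay nearer to 0, and PROS1 is a mesenchymal signature gene of the study. With standard errors near 0.2 these values do not show that the levels are unrelated to the score. With single markers, MACC1 had a rho of 0.682 with the epithelial cadherin CDH1, 0.697 with EPCAM, -0.626 with the intermediate filament VIM and -0.698 with the repressor ZEB1. AXL had 0.534 with VIM, 0.379 with ZEB1 and -0.281 with CDH1, all as descriptions over 28 lines.

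In 5 lines (HEYC2, OV56, OAW42, FUOV1 and OV7) the duplicate arrays had scores of opposite sign. MACC1 was higher on the array of lower score in 5 of 5, with differences between arrays of 0.574 to 2.59, MST1R, GAS6 and HGF in 4, TYRO3 in 3, and AXL, MERTK, PROS1 and MET in 2. The share of all genes that did the same was not computed, so these counts are descriptions only. In HEYC2 and OV56 one of the arrays compared is an array that stood apart, and HGF was under the olfactory receptor reference in all 5 lines. MACC1 was not above that reference on both arrays in HEYC2, OAW42 and FUOV1. In FUOV1 the array at a score of 0.382 read 5.34 for MACC1 and the one at -0.334 read 7.94.

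SKOV3 and PEO1 are lines the study uses as a more mesenchymal and an epithelial model, with scores of 0.531 and -0.818. MACC1 was lower in SKOV3 by 10.39 log2 units (arrays 2.38 and 2.24 against 12.87 and 12.53; difference -10.39 ± 0.67, SE; limma, adjusted p = 7.323e-14). MST1R was lower too, with 6.01 and 6.06 against 8.58 and 8.14 (difference -2.32 ± 0.29, adjusted p = 1.685e-07). PROS1 was higher in SKOV3, with 9.63 and 9.66 against 7.55 and 7.68 (2.03 ± 0.39, adjusted p = 0.0001632). The arrays of the lines did not overlap for these 3 genes, nor for AXL, MET, GAS6 and HGF, which were not called. The lack of overlap thus does not set the called genes apart, and the share of all genes without overlap was not computed. MACC1 in SKOV3 was under the olfactory receptor reference, so its difference is one of probe intensities against a level that may be background. Of all genes 5.31 percent were called higher in SKOV3 and 5.46 percent lower. AXL read 10.72 and 10.85 against 9.90 and 9.92, a difference of 0.87 ± 0.19 (limma, adjusted p = 0.000732) that stayed under the minimum of 1 log2 unit. MET read 8.69 and 8.82 against 10.53 and 10.29, a difference of -1.66 with a 95% half-width of 1.54 (adjusted p = 0.157), and without the 3 arrays that stood apart, none of them from these lines, the adjusted p was 5.72e-08. GAS6 differed by -0.40 with a half-width of 0.579, TYRO3 by 0.10 with 0.468, MERTK by 0.11 with 0.546 and HGF by -0.28 with 0.593. Without the 3 arrays these half-widths were 0.382, 0.280, 0.295 and 0.326 in the same order, and none of these genes was called.

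The genes around the receptors were read from lists. Of 10 genes that process HGF and macrophage-stimulating protein, 7 varied between lines. Over all genes 65.7 percent did, a share the counts of varying genes in these lists are to be read against. Along the EMT score 3 fell and 0 rose past the adjusted threshold, against 0.669 and 0.136 percent of all genes. The median rho was -0.351, against 0.012 over all genes. Those that fell were SPINT1 and SPINT2, inhibitors of the proteases that activate both ligands, and ST14, the protease matriptase. SPINT1 had a rho of -0.776 (permutations, adjusted p = 0.00707) and ran from 5.88 in SKOV3 to 10.76 in PEO1. ST14 had -0.774 (adjusted p = 0.00707), from 4.54 in SKOV3 to 11.78 in PEO1, and SPINT2 -0.761 (adjusted p = 0.0128), from 6.79 in HEY to 11.93 in PEO1. All 3 belong to the study's signature and are counted in the score, so these values are not independent of it. Both inhibitors and a protease are thus among those that fell.

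Of 18 MET partners and adaptors, 16 were measured, 12 varied and 0 passed the adjusted threshold along the score, with a median rho of -0.122. The integrin subunit ITGB4 had a rho of -0.606 (adjusted p = 0.0694), the plexins PLXNB2 and PLXNB1 -0.512 (0.217) and -0.502 (0.235). Of 14 genes for the maturation of TAM ligands and for partners of the receptors, 11 varied and 0 passed, with a median of -0.071. The values largest in size were those of the galectin LGALS3 (-0.508, adjusted p = 0.223), the sheddase ADAM17 (-0.425, 0.390) and the receptor chain IL15RA (-0.368, 0.511). Of 14 genes of ERK feedback and output all varied and 0 passed, with a median of 0.099. The phosphatase DUSP4 had -0.411 (0.419), the inhibitor SPRY4 0.363 (0.529) and the transcription factor ETV4 0.349 (0.552).

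Among the 53 measured receptor tyrosine kinases, MET ranked 1 and AXL 3 by SD over lines (1.76 and 1.66), with ERBB4, a neuregulin receptor, between them (1.70). The collagen receptor DDR2 (1.498), the ephrin receptor EPHA7 (1.45), the fibroblast growth factor receptor FGFR2 (1.419) and TIE1 (1.419), an endothelial receptor highest in TYKNU, came next. MERTK ranked 15 (0.970), MST1R 24 (0.847) and TYRO3 40 (0.408). ERBB4 ran from 4.62 in DOV13, the line with the highest MET, to 10.25 in FUOV1, and DDR2 from 4.67 in DOV13 to 10.23 in HEY. Of the 48 receptors other than the members and measured here, 38 varied between lines, as did 65.7 percent of all genes. Past the adjusted threshold 3 fell along the EMT score and 0 rose, against 0.669 and 0.136 percent of all genes. ERBB3 (rho = -0.697, permutations, adjusted p = 0.0158), DDR1 (-0.688, 0.0196) and EPHA1 (-0.651, 0.0337) were those 3, all of them signature genes of the study. They are counted in the score, so these values are not independent of it. Without the 3 arrays that stood apart EPHA1 missed the threshold (adjusted p = 0.0549). DDR2, which is not among the signature genes listed here, then rose past it (rho = 0.657, adjusted p = 0.02499, against 0.576 and 0.112 with all arrays).

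**Figure D5:**
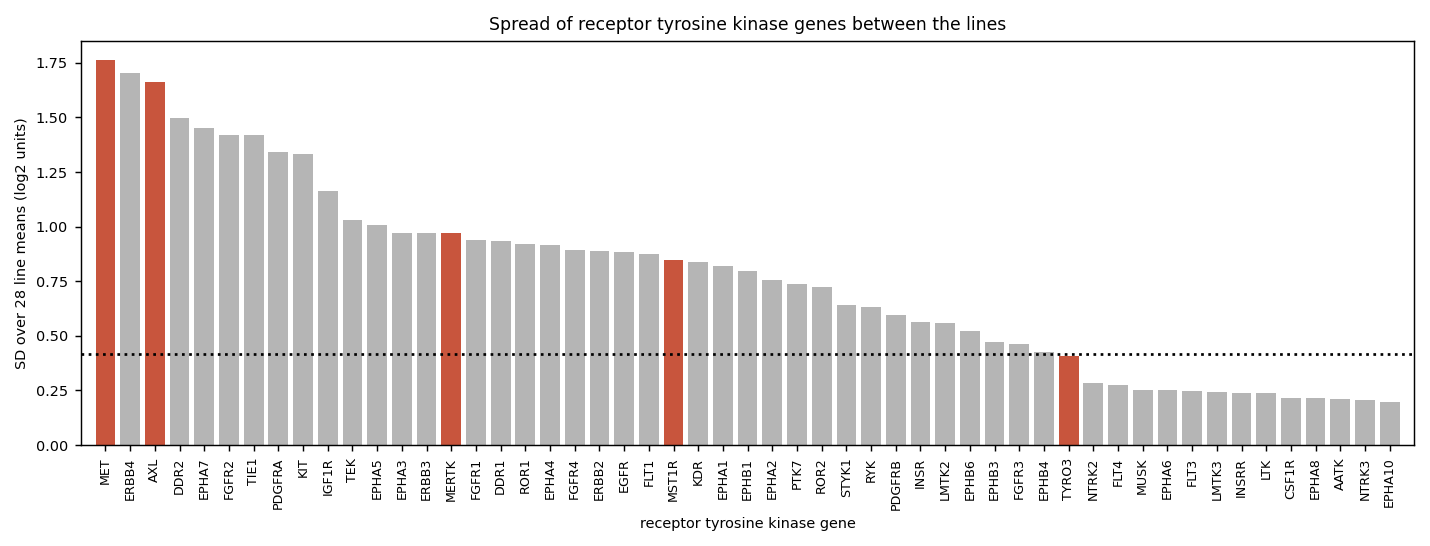
SD over 28 line means (log2 units) of each measured receptor tyrosine kinase, ordered by size, with AXL, TYRO3, MERTK, MET and MST1R in red. The dotted line is the median SD of all genes (0.418), and MET (1.76) and AXL (1.66) stand at ranks 1 and 3 while TYRO3 (0.408) is below the line.

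The genes whose levels followed each member most closely over the 28 lines were taken by Spearman's rho among 7090 genes with an SD of at least 0.5, as a description only. For AXL they were PLAU, which encodes the urokinase protease (0.887), MEAK7 (0.878) and FRMD6 (0.870), with RAB11FIP4 the most opposed (-0.799). PLAU ran from 6.15 to 11.67 over the line means. For GAS6 they were CLIP4 (0.835), the sodium leak channel NALCN (0.817) and TBC1D2 (0.775), with PPFIBP2 at -0.703. For MET they were the cytokine IL18 (0.765), SERPINB1 (0.742) and the prion protein gene PRNP (0.736), with the collagen COL11A1 at -0.718. For MACC1 they were PRSS8, the epithelial protease prostasin (0.853), the ephrin receptor EPHA1 (0.828) and P-cadherin, CDH3 (0.80), with TANGO6 at -0.812. For MST1R they were UNC93B1, which traffics Toll-like receptors (0.822), SERINC2 (0.820) and the cystatin CST6 (0.738), with MAP1A at -0.781.

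HGF was followed by the homeobox gene MEOX2 (0.847), the neurofilament gene NEFL (0.768) and the pituitary factor POU1F1 (0.739), with CYP2R1, a vitamin D hydroxylase, at -0.654. MEOX2 was at 9.85 in A2780 and at most 6.83 elsewhere. Without A2780 the rho over 27 lines was 0.83, 0.74 and 0.71, among HGF values that lay under the olfactory receptor reference. PROS1 was followed by TRIM4 (0.709), DUSP19 (0.702) and the transcription factor ATF2 (0.699), with MYEOV at -0.619, and TYRO3 by THOC6 (0.707), BAMBI (0.669) and the linker histone gene H1-3 (0.623), with the splicing factor SLU7 at -0.665. The genes nearest to MERTK were the lamin B receptor LBR (0.646), the replication factor DBF4 (0.623) and YWHAE (0.622), with LRRK1 at -0.660, and the value of LBR was 0.522 without the 3 arrays that stood apart.

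Base medium was compared among the culture conditions in the labels. Serum and supplements varied with the line too, and medium, supplements and line cannot be told apart. Over 26 line means (10 lines for DMEM, 9 for RPMI 1640, 7 for DMEM/F12) 0 of the 9 genes and 0.00 percent of all genes passed an adjusted p of 0.05 (limma) in each of the 3 contrasts. At an unadjusted p under 0.05 there were 312 genes for DMEM/F12 minus DMEM, 516 for RPMI 1640 minus DMEM and 398 for DMEM/F12 minus RPMI 1640, with 0 of the 9 among them. The nearest was MERTK, with a mean of 6.30 ± 0.76 (SD, n = 7) in DMEM/F12 and 7.18 ± 1.06 (SD, n = 10) in DMEM, a difference of -0.88 ± 0.46 (SE; limma, adjusted p = 1). The mean of HGF in RPMI 1640, 4.47 ± 2.15 (SD, n = 9), against 3.72 ± 0.33 (SD, n = 10) in DMEM rested on A2780.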

How the data were processed

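The authors extracted total RNA with the Qiagen miRNeasy kit, amplified it with NuGEN Applause WT-Amp ST and hybridised it to Affymetrix Human Gene ST arrays. The submitters' processing notes name RMA in affy 1.42.3 for the normalization, so the values the authors deposited are log2 intensities, with array medians of 5.961 to 6.306. Which arrays were normalized together, batches and any filter are not given in the sources used here. RMA aligns the distributions of probe intensities between arrays, so a shift shared by most genes may be hidden. The deposited values still differed in spread, with array SDs of 1.84 to 2.32 log2 units. The number of arrays limits the precision.

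Of 28869 probe sets, 19310 carry 1 gene, 1752 several and 7807 none listed, and only the first kind was used. Arrays of a line were fitted with a mean per line in limma 3.58.1 (trend and robust, statmod 1.5.0, R 4.3.3), with Benjamini-Hochberg adjustment over 18377 genes, and for lines against the others also over the 28 contrasts. The remaining steps ran in Python 3.11.15 (with numpy 2.4.6 and scipy 1.17.1 for ranks and permutations, pandas 2.3.3 for tables, matplotlib 3.10.9 for plots), and were tested on simulated data. The EMT score was rebuilt from the study's gene lists (420 listed), which hold fewer genes than the signature the paper reports. The 9 genes and all lists were chosen with earlier results of these data known. The genes named were the 9, the 3 of each pathway list with the largest rho in size, for each member the 3 most alike and the 1 most opposed, the 5 other receptor tyrosine kinases of largest SD, and CDH1, EPCAM, VIM, ZEB1, PAX8, PTPRC, CD14, COL1A1 and PECAM1. ERBB3, DDR1, EPHA1 and the further macrophage, fibroblast and endothelial markers were named after their values were seen. Some items are not reported here. Replicate numbers do not pair the samples, because nothing ties a number to a batch.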

Additional observations from a re-analysis of the deposited data

Results flagged for a closer look

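Within each base medium the highest and lowest line of each gene were compared with the rest by Dixon's criterion, and 2 of 27 groups exceeded it. Chance alone gives about 1 in 20 groups. HGF in the RPMI 1640 lines did so through A2780, at 10.2 against 4.39 in the nearest other line, a gap of 0.859 of the range over 9 lines. HGF in the DMEM/F12 lines did so through OV56, at 4.54 against 3.85, a gap of 0.639 of the range over 7 lines. The value of OV56 rests on replicate 2, which stood apart (5.16, against 3.93 on replicate 1), and both lie under the olfactory receptor reference of 5.45. The cause was not tested for either.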

How the results depend on the processing

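Of 9 genes, 9 varied between lines under each of the alternatives tried. The line values called higher and lower, 49 and 51 as reported, were 54 and 52 without the 3 arrays that stood apart, 50 and 47 with a further quantile normalization, and 71 and 74 with no minimum difference, and ranged from 48 to 53 and from 49 to 56 as each array was left out in turn. Calls lost are named with each gene. Calls gained in other lines were MACC1 lower in TYKNU, A2780, COLO720E, CH1 and OV56, MET higher in OV7, OVCAR5 and COLO720E, GAS6 higher in HEYC2 and MST1R lower in OV17R. The 3 genes called between SKOV3 and PEO1 were 3 with each of the 4 arrays left out, and 4 without the 3 arrays or with the 4 arrays alone, where MET was added (difference -1.66, adjusted p = 5.721e-08 and 1.753e-10, limma), and 4 with no minimum difference, where AXL was (0.87). With the replicate number as a block (replicate block) 9 genes varied, 49 and 51 values were called and 3 genes differed, and no call count changed. Over 378 pairs of lines, deviations of same-numbered arrays correlated from -0.887 to 0.871, with 91 pairs over 0.1. Of the 2 genes called along the EMT score, 1 was left without replicate 2 (MACC1 -0.586, adjusted p = 0.109), 0 when centred on the base medium (MACC1 -0.636 and MST1R -0.528), and 0 without the 2 lines farthest from the median score (MACC1 -0.666, adjusted p = 0.0768, and MST1R -0.616, adjusted p = 0.129), the last 2 settings having fewer lines. Without replicate 1 the count was 2, and the number with a rho beyond 0.5 in size was 2 under each setting run. In the comparison of media 0 of the 9 genes were called under each setting run. Of the genes called between SKOV3 and PEO1 or along the score, 0 changed sign. Values near 0 that were not called did, such as the rho of AXL (0.030) and of HGF (0.109) without the 3 arrays, and SKOV3 minus PEO1 for TYRO3 (-0.03) and MERTK (-0.12) without PEO1 replicate 2. Levels near or under the olfactory receptor reference limit what can be said of HGF outside A2780 and of MACC1 in its low lines.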
